A study of Mus musculus with 6 samples.

Results

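The 10 genes described here encode proteins of intestinal mucus and of the goblet cells that make it: Muc2, Clca1, Fcgbp, Zg16, Agr2, Tff3, Spink4, Retnlb, Muc13 and Hepacam2. They were taken by symbol, each matched 1 Ensembl identifier, and together they are 10 of the 37991 genes in the deposited count tables. Each of 3 HBUS mice, 60 weeks old, gave RNA from a serrated polyp and from the normal distal cecum around it, which makes 6 libraries in 3 pairs. In HBUS mice the intestinal epithelium expresses transgenic HB-EGF, a growth factor, and US28, a chemokine receptor of cytomegalovirus. Both tissues of a pair come from the same transgenic animal, so the comparison sets polyp against tissue that carries the same transgenes. The samples were pieces of whole tissue, and the labels' protocols list a treatment with MICROBEnrich, a kit made to remove mammalian RNA, before library preparation. How far that step applied to, or changed, the mouse counts is not known here and was not tested.

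Goblet cells store the gel-forming mucin MUC2 in granules and release it to form the mucus layer over the epithelium. Other secreted goblet cell proteins become part of that gel or process it. CLCA1 is a secreted metalloprotease that cleaves MUC2, FCGBP is a large protein with von Willebrand factor domains bound up with the MUC2 network, and ZG16 is a small lectin that binds bacterial cell walls. Goblet cells arise from secretory progenitors under the transcription factor ATOH1 and mature with the help of SPDEF and KLF4.

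Of the 10 genes, 3 were called lower in polyps, and Muc2 was not among those called. Clca1 was 3.66-fold lower, Zg16 2.43-fold lower and Fcgbp 1.98-fold lower than in the surrounding cecum of the same mouse. Of the 10 genes, all of which passed the filter on low counts, 3 fell and 0 rose (edgeR quasi-likelihood, two-sided, paired by mouse, Benjamini-Hochberg adjusted p under 0.05). Among all 10960 genes tested, 2.76% were called, 1.04% lower and 1.72% higher. At an unadjusted p under 0.05 the same test had 5 of the 10 lower and 0 higher (6.27% and 8.3% of all genes tested), and DESeq2 and limma-voom also called 3 lower and 0 higher (of all genes, 1.96% and 1.72% were lower in those fits). The log2 fold change was below 0 for 9 of the 10, and for 51.6% of all genes tested. The median log2 fold change of the 10 genes was -0.58, beside -0.02 over all genes tested, and it was -0.34 without mouse 1119 and -1.03 without mouse 1192. In whole tissue, fewer goblet cells and less RNA per goblet cell cannot be told apart.

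Levels below are in CPM, the counts scaled to a common library size and composition, and a fold change is polyp over surrounding tissue across the 3 pairs, ± its standard error from edgeR on the log2 scale. Library totals ran from 6632645 to 13350119 counts, of which the mitochondrial rRNAs took 46.3% to 75.3%. The polyp library of mouse 1192 stood apart, with counts for 12326 genes at an equal depth of 1852065 counts outside those rRNAs, against 14295 to 16086 in the other libraries, and with the highest scaling factor (1.43). The surrounding library of mouse 1199 stood apart too, with the lowest scaling factor (0.594, against 0.972 to 1.43), the highest rRNA share and the fewest other counts. The signed log2 ratio of polyp over surrounding tissue was highest in mouse 1192 for 9 of the 10 genes, and for 35.3% of all genes tested. For the genes that were lower in all 3 polyps, the highest signed ratio is the smallest decrease. Without mouse 1192, 4 of the 10 fell (1.18% of all genes tested fell in that fit), the added gene being Tff3. Without mouse 1199, 1 of the 10 fell (0.181% of all genes), and without mouse 1119, 2 fell (0.351%).

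**Figure D1:**
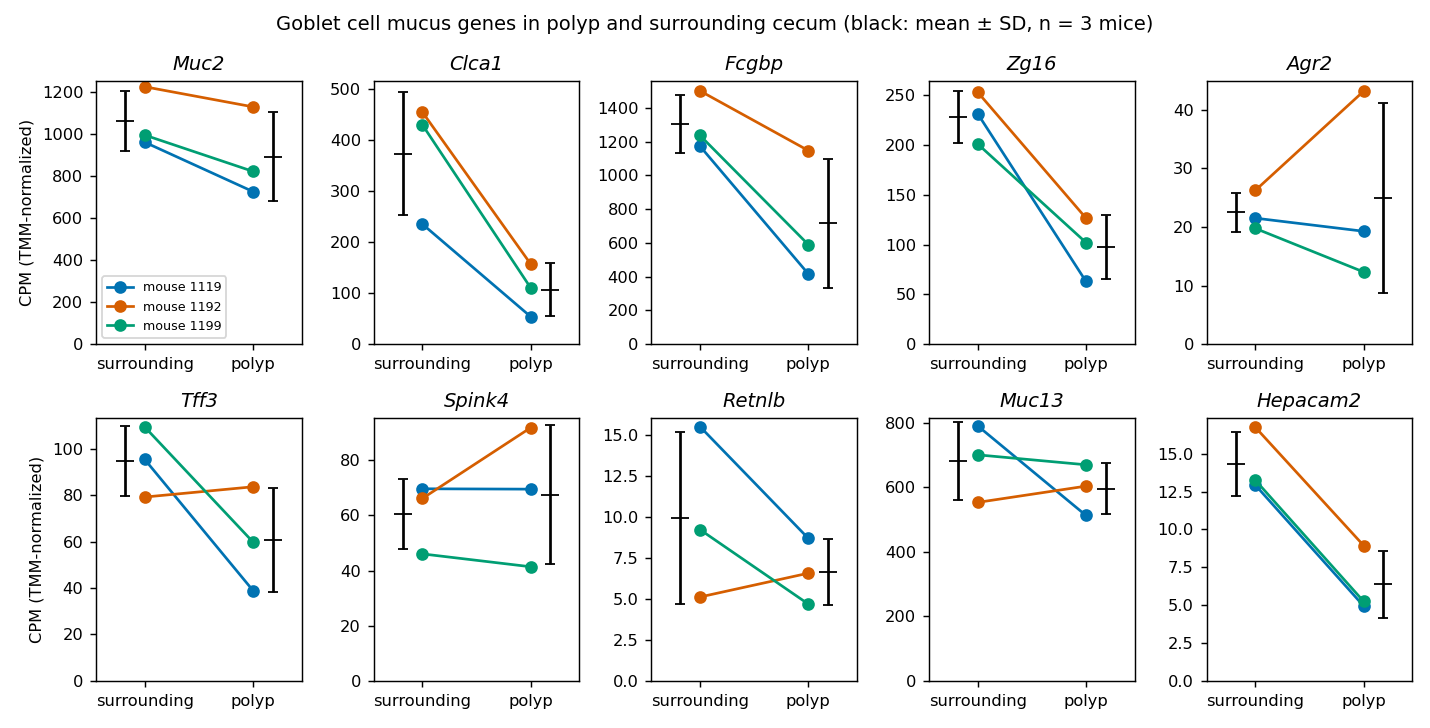
CPM (vertical axes, each starting at 0) of the 10 genes in surrounding tissue and polyp, with a line for each of the 3 mice and the mean ± SD in black. Clca1, Zg16, Fcgbp and Hepacam2 have all 3 polyps below all 3 surrounding samples, while the other 6 genes overlap between tissues.

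Clca1 (ENSMUSG00000028255), the metalloprotease gene, had the largest difference of the 10. It stood at 236, 455 and 430.3 CPM in the surrounding tissue of mice 1119, 1192 and 1199, and at 54, 157 and 110.4 CPM in their polyps. The tissues did not overlap, and the lowest surrounding sample was above the highest polyp. The means were 374 ± 120.3 and 107 ± 51.7 CPM (SD, n = 3), with a log2 fold change of -1.87 ± 0.16 and an adjusted p of 0.00305 by edgeR. Clca1 ranked at position 4 of the 10960 genes by p. Its call held whichever mouse was left out, but not without the pairing (adjusted p = 0.101), in which fit 0.328% of all genes were lower.

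Zg16 (ENSMUSG00000049350), the lectin gene, went from 231, 253 and 201 CPM in surrounding tissue to 62.9, 126 and 102 CPM in the polyps of the same mice. Here the surrounding samples lay close together and all 3 polyps were below them. The means were 228 ± 26.1 and 97.1 ± 32 CPM (SD, n = 3), with a log2 fold change of -1.28 ± 0.20 and an adjusted p of 0.0156 by edgeR. Zg16 was the member still called without the pairing (adjusted p = 0.0475), and it missed the threshold without mouse 1199 (adjusted p = 0.0582).

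Fcgbp (ENSMUSG00000047730), the gene of the large von Willebrand domain protein, stood at 1174, 1501 and 1237 CPM in surrounding tissue. In polyps it was at 416, 1147 and 589.9 CPM, with the polyp of mouse 1192 just under the lowest surrounding sample. The means were 1304 ± 174 and 718 ± 382 CPM (SD, n = 3), with a log2 fold change of -0.98 ± 0.21. Its call was close to the threshold (edgeR adjusted p = 0.0474) and was lost without mouse 1119 (adjusted p = 0.197), without mouse 1199 (0.225), without robust spread estimates (0.0709) and without the pairing (0.307). FCGBP has repeated domains and related genes, and reads that similar copies share could not be assigned here. Of 4 related genes listed, 2 were not matched in these tables, 1 was tested and 0 were called.

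Hepacam2 (ENSMUSG00000044156), an immunoglobulin-type membrane protein gene found in goblet cells, was low in both tissues. It stood at 12.9, 16.8 and 13.3 CPM in surrounding tissue and at 4.94, 8.94 and 5.25 CPM in polyps, without overlap. Its log2 fold change of -1.20 ± 0.29 lay between those of Zg16 and Fcgbp and missed the threshold (edgeR adjusted p = 0.0811), on 37 to 236 counts per library. Clca1, Zg16, Fcgbp and Hepacam2 were the 4 of 10 genes with all polyps below all surrounding samples, which held for 8.58% of all genes tested. For 0 of the 10 were all polyps above, against 9.84% of all genes. With no filter on low counts, Hepacam2 and Tff3 were called too, 5 of 10 against 1.46% of all genes in that fit.

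Muc2 (ENSMUSG00000025515), the structural mucin of the gel, stood at 961, 1224 and 995 CPM in surrounding tissue and at 726, 1129 and 822 CPM in polyps. The polyp was lower in each of the 3 mice, which was so for 18.6% of all genes tested, but the tissues overlapped. None of the 10 genes was higher in all 3 polyps, which was so for 19.6% of all genes. The log2 fold change was -0.27 ± 0.14 (edgeR adjusted p = 0.456). The 95% interval of the fold change ran from 0.666 to 1.04. Muc2 was not called under any of the alternatives run.

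Muc13 (ENSMUSG00000022824) encodes a membrane-bound mucin of the epithelial surface, made by enterocytes as well as goblet cells. It stood at 789.6, 553 and 699.9 CPM in surrounding tissue and at 512, 603 and 669 CPM in polyps, so the highest surrounding and the lowest polyp sample were both from mouse 1119. The log2 fold change was -0.19 ± 0.17 (edgeR adjusted p = 0.694), with a 95% interval of the fold change from 0.67 to 1.15. In the annotation, 184 of its exon bases overlap the antisense gene Gm15657, which had 259 counts over all 6 libraries.

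Tff3 (ENSMUSG00000024029), the trefoil peptide that goblet cells secrete with mucin, differed between mice. It went from 95.4 to 38.9 CPM in mouse 1119 and from 109 to 59.8 CPM in mouse 1199, but from 79.2 to 83.6 CPM in mouse 1192. The log2 fold change was -0.69 ± 0.25 over all 3 pairs (edgeR adjusted p = 0.231) and -1.12 ± 0.19 without mouse 1192 (adjusted p = 0.0164). The other trefoil genes, Tff1 and Tff2, known from the stomach, had 0 counts in all 6 libraries, where 3 counts correspond to 0.225 to 0.452 CPM of the unscaled library total. These limits cover counting error only.

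Agr2 (ENSMUSG00000020581), a protein disulfide isomerase of the endoplasmic reticulum needed to make MUC2, differed between polyps. It stood at 21.5, 26.3 and 19.8 CPM in surrounding tissue and at 19.3, 43.2 and 12.3 CPM in polyps, so the polyp of mouse 1192 was the highest and that of mouse 1199 the lowest of the 6. The log2 fold change was -0.0045 ± 0.27 (edgeR adjusted p = 0.996), and the 95% interval of the fold change ran from 0.648 to 1.53. Of 2 further genes of its family, 1 was tested and 0 were called. Spink4 (ENSMUSG00000028415), a Kazal-type protease inhibitor of goblet cells, stood at 69.7, 66.2 and 46.1 CPM in surrounding tissue and at 69.5, 91.8 and 41.4 CPM in polyps. Its log2 fold change was 0.11 ± 0.17 (edgeR adjusted p = 0.818), with a 95% interval of the fold change from 0.826 to 1.42. That interval does not reach the 1.98-fold decrease of Fcgbp, the smallest among the genes called.

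Retnlb (ENSMUSG00000022650) encodes RELM-beta, an antimicrobial goblet cell protein induced by interleukins 4 and 13. It stood at 15.5, 5.11 and 9.21 CPM in surrounding tissue and at 8.68, 6.56 and 4.68 CPM in polyps, on 33 to 164 counts per library. The surrounding samples differed more among themselves (SD 5.22 CPM) than the tissue means did (9.94 and 6.64 CPM), and the log2 fold change was -0.47 ± 0.37 (edgeR adjusted p = 0.637). The other resistin family genes Retn, Retnla and Retnlg had 13, 13 and 16 counts over all 6 libraries and were not tested.

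**Figure D2:**
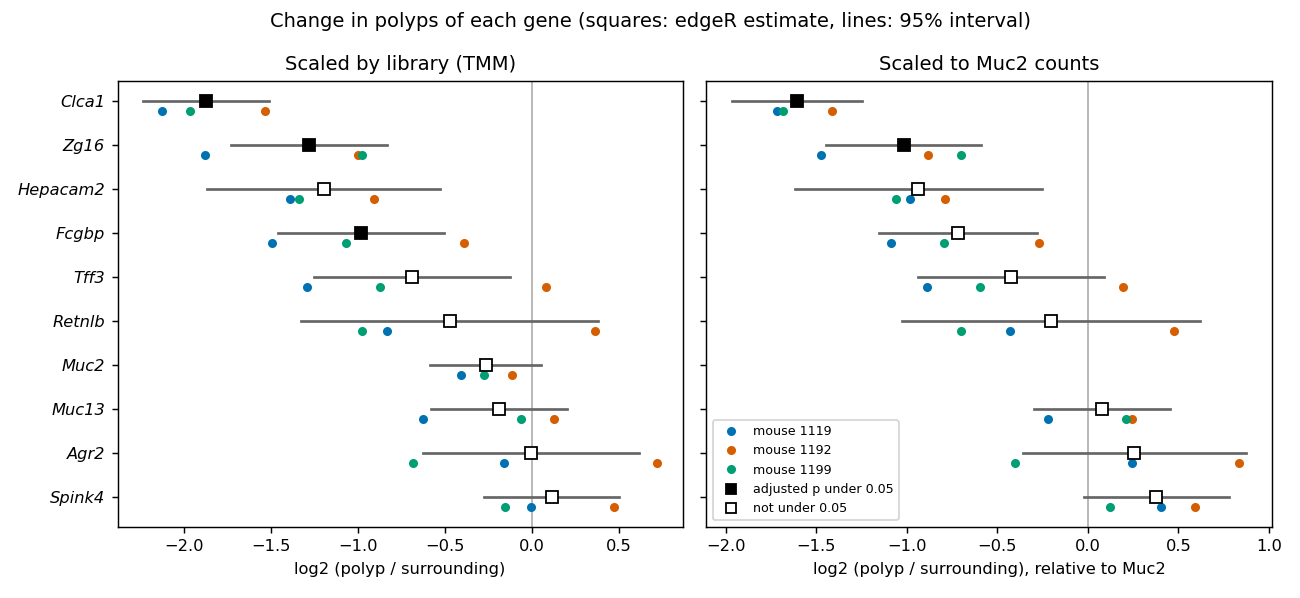
Log2 fold change (horizontal axes) of each gene, polyp over surrounding tissue, scaled by library on the left and to the Muc2 counts of the same library on the right. Squares are edgeR estimates with 95% intervals, filled where the adjusted p is under 0.05, and dots are the 3 mice. Clca1 and Zg16 are filled in both panels, and Fcgbp in the left panel.

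RNA levels relative to Muc2 were examined by scaling each library to its Muc2 count, a setting chosen after seeing the data. The Muc2 count was taken as a fixed scale without a counting error of its own. The results therefore do not stand apart from the main fit to the same libraries. For each 1000 Muc2 counts, Clca1 had 245, 372 and 433 counts in the surrounding tissue of mice 1119, 1192 and 1199, and 74.4, 139 and 134 in their polyps. Relative to Muc2, Clca1 was lower in polyps by a log2 difference of -1.61 ± 0.16 (edgeR adjusted p = 0.00548) and Zg16 by -1.02 ± 0.19 (adjusted p = 0.0238). This setting moved the median of all genes from -0.02 to 0.24, and in it 0.52% of all genes tested were lower and 3.74% higher.

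Fcgbp held a nearly fixed ratio to Muc2 in surrounding tissue, 1221, 1226 and 1244 counts for each 1000 Muc2 counts, and had 574, 1017 and 718 in polyps. All 3 polyps were lower, but the difference missed the threshold (log2 -0.72 ± 0.19, edgeR adjusted p = 0.0777). Hepacam2 showed the same layout, with 13.5, 13.7 and 13.3 counts in surrounding tissue and 6.81, 7.92 and 6.38 in polyps (log2 -0.94 ± 0.30, adjusted p = 0.124). Spink4 was the gene with more counts relative to Muc2 in all 3 polyps, 95.8, 81.4 and 50.4 against 72.5, 54 and 46.3 in surrounding tissue, also without passing (log2 0.38 ± 0.18, adjusted p = 0.283). For Agr2, Tff3, Retnlb and Muc13 the mice differed in direction, with adjusted p from 0.35 to 0.848. Muc2 itself was lower in each polyp, and in CPM Spink4 was higher in the polyp of mouse 1192 alone. The share of all genes that were higher or lower than Muc2 in all 3 polyps was not computed.

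As a share of all counts outside the mitochondrial rRNAs, the 10 genes together took 0.913%, 1.16% and 0.904% in surrounding tissue and 0.49%, 0.903% and 0.588% in polyps of mice 1119, 1192 and 1199. Within the 10-gene total, Muc2 made up 26.6%, 29.3% and 26.5% of the counts in surrounding tissue and 37.9%, 33.2% and 34% in polyps. The Clca1 share of that total was 6.53%, 10.9% and 11.4% in surrounding tissue and 2.82%, 4.63% and 4.57% in polyps. These shares need no scaling between libraries, and for both genes the tissues did not overlap. Shares of 1 total depend on each other, and Muc2 took a larger share in polyps although its CPM was lower in each polyp. They come from the same counts as the main fit and do not stand apart from it.

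Levels of different genes were compared only per kilobase of exon, using the union of exons in GENCODE M21. In surrounding tissue the order from high to low was Muc13, Tff3, Zg16, Muc2, Spink4, Fcgbp, Clca1, Agr2, Retnlb and Hepacam2. It began at 224 ± 39.4 CPM per kilobase (SD, n = 3) for Muc13 and 192 ± 30.7 for Tff3 and ended at 2.44 ± 0.36 for Hepacam2. Neighbours in this order overlapped between samples except Clca1 with Agr2 and Retnlb with Hepacam2. In polyps the order was Muc13, Spink4, Muc2, Tff3, Zg16, Fcgbp, Clca1, Agr2, Retnlb and Hepacam2, and Retnlb with Hepacam2 was the pair of neighbours that did not overlap. Zg16 thus stood at 182 ± 20.8 CPM per kilobase in surrounding tissue and 77.2 ± 25.5 in polyps, and Spink4 at 127 ± 26.7 and 142 ± 53. The lengths come from a later annotation than may have been used for counting, which is not given in the sources used here.

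The 5 genes whose profile over the 6 libraries was nearest to that of Muc2 were Sphk2, Akap8, Ctsa, Ezh1 and Psd4, and no other member was among them. Nearness was the root mean square difference of log2(CPM + 0.5) after centring each gene on its own mean, over 5699 named genes with a mean log2 CPM of at least 3. The distances of the 5 were 0.0472 to 0.0746. Among the other members the nearest was Muc13, at rank 1751 (0.317), and the farthest was Clca1, at rank 5484 (0.887).

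Of 11 tested transcription factor genes listed for goblet cells, 1 fell and 0 rose, with a median log2 fold change of -0.29. The list mixes factors of secretory and goblet fate with Hes1, Cdx2 and Hnf4a, which are not particular to secretory cells. Beside this list and those below, edgeR called 1.04% of all genes tested lower and 1.72% higher. At an unadjusted p under 0.05 these shares were 6.27% and 8.3%. At an unadjusted p under 0.05, 2 were lower and 0 higher, and DESeq2 and limma-voom each called 2 lower and 0 higher. The gene that fell, Klf4, encodes a Kruppel-like factor needed for goblet cell maturation that surface colonocytes also express. It stood at 239, 303 and 301 CPM in surrounding tissue and at 102, 181 and 167 CPM in polyps, without overlap (log2 fold change -0.94 ± 0.15, edgeR adjusted p = 0.0174). Klf4 missed the threshold without mouse 1119 (adjusted p = 0.0839), without mouse 1199 (0.0883) and without the pairing (0.1099).

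Atoh1, which sets the secretory fate, stood at 14, 16.8 and 8.76 CPM in surrounding tissue and at 7.11, 6.4 and 2.41 CPM in polyps. Here too all 3 polyps were below all surrounding samples, with a log2 fold change of -1.37 ± 0.32 that missed the threshold (edgeR adjusted p = 0.0712). DESeq2 and limma-voom called Atoh1 lower. Spdef, a driver of goblet cell maturation, differed in direction between mice. It went from 4.91 to 1.08 CPM in mouse 1119, but from 1.35 to 6.15 CPM in mouse 1192. In mouse 1199 it went from 0.899 to 0.284 CPM, near the limit of counting. The log2 fold change was -0.42 ± 1.08 (edgeR adjusted p = 0.9), and no common direction can be read from it. The log2 fold changes of Cdx2 and Xbp1, a factor of intestinal identity and one of secretory capacity, were -0.29 ± 0.16 and 0.41 ± 0.25 (adjusted p = 0.472 and 0.53).

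Promoter windows of 300 bases, from 250 before to 50 after the annotated start, were found for 5 of the 10 genes in RefSeq (GRCm38.p6), namely Muc2, Fcgbp, Agr2, Muc13 and Hepacam2. The 250 upstream bases of Fcgbp and Muc2 are shown because Fcgbp was called lower and Muc2 was not. Their transcripts kept a steady ratio in surrounding tissue, which was seen after the fact. Fcgbp relative to Muc2 missed the threshold (edgeR adjusted p = 0.0777), so a difference between the 2 genes in polyps is not established. Capitals mark the letters GGGTGTG or their reverse complement CACACCC, a core bound by Kruppel-like factors, the family of Klf4. The Fcgbp window lies at chr7:28070986-28071235 and the Muc2 window at chr7:141690090-141690339, both on the plus strand.
Fcgbp: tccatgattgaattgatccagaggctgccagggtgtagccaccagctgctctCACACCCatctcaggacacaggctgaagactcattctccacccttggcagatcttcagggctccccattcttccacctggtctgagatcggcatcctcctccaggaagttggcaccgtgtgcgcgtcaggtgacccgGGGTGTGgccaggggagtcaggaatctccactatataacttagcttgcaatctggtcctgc
Muc2: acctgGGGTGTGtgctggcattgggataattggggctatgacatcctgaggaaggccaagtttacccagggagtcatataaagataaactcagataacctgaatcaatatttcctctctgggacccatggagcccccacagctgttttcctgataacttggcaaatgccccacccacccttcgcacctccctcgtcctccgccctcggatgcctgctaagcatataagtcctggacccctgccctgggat

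Counting from the annotated start, with -1 for the base before it, the matches in Fcgbp begin at -198 and -61 and the match in Muc2 at -245. Agr2 has 1 match, at -61, and the windows of Muc13 and Hepacam2 hold none of these letters. On either strand, GGGTGTG occurs in 7.95% of all 32851 promoter windows of this length. Of 4 further motifs searched on both strands, TTTATGG (CDX type, in 2.75% of all windows) was found in Agr2 at -48 and in Hepacam2 at 36. TTTATTG (CDX type, 4.6%), TGTTTAC (FOXA core, 3.65%) and the palindromic STAT6-type motif (6.95%) were not found in the windows of these 5 genes. No 2 matches overlapped. A match describes letters in a window and is no evidence that a factor binds there.

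Among 35 tested genes of the goblet secretory pathway and of mucus glycosylation, 2 rose and 0 fell, with a median log2 fold change of -0.09. Of all genes tested, 1.72% rose and 1.04% fell. At an unadjusted p under 0.05, 3 of the 35 were higher and 6 lower, beside 8.3% and 6.27% of all genes tested. DESeq2 called 2 higher and 3 lower, and limma-voom 3 higher and 1 lower. Those that rose add sugars to proteins. Galnt3, which starts O-glycan chains, stood at 35.5, 34.1 and 64.3 CPM around the polyps and at 102, 92.3 and 85.1 CPM in them (log2 fold change 1.13 ± 0.23, edgeR adjusted p = 0.0393). St3gal6, a sialyltransferase gene, stood at 5.95, 3.76 and 6.74 CPM and at 13.6, 15.6 and 18.7 CPM (1.57 ± 0.31, adjusted p = 0.0358). For both genes the tissues did not overlap. Neither was called without mouse 1119, without mouse 1192, without the pairing, or with scaling on epithelial genes, St3gal6 was not called without mouse 1199, and Galnt3 was not called without robust spread estimates (adjusted p = 0.055).

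Of the 35 genes, 21 had a log2 fold change below 0 and 14 above, and the following did not pass. Bcas1, a gene marking goblet cells, stood at 16.4 ± 3.53 CPM around the polyps and 6.99 ± 2.85 CPM in them (SD, n = 3, edgeR adjusted p = 0.104), and Fer1l6 at 68.2 ± 13.6 and 39.4 ± 21.9 CPM (adjusted p = 0.0669). Gcnt3, which branches mucin O-glycans, stood at 261 ± 49.7 and 179 ± 19.5 CPM (adjusted p = 0.102). C1galt1, which extends O-glycan chains, had higher values in polyps, 73.3 ± 19.1 and 111 ± 18.4 CPM (adjusted p = 0.108). Reg4, a lectin of deep crypt secretory cells, stood at 63.3 ± 18 and 70.7 ± 17.3 CPM (adjusted p = 0.676), with a log2 fold change of 0.17 ± 0.15.

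**Figure D3:**
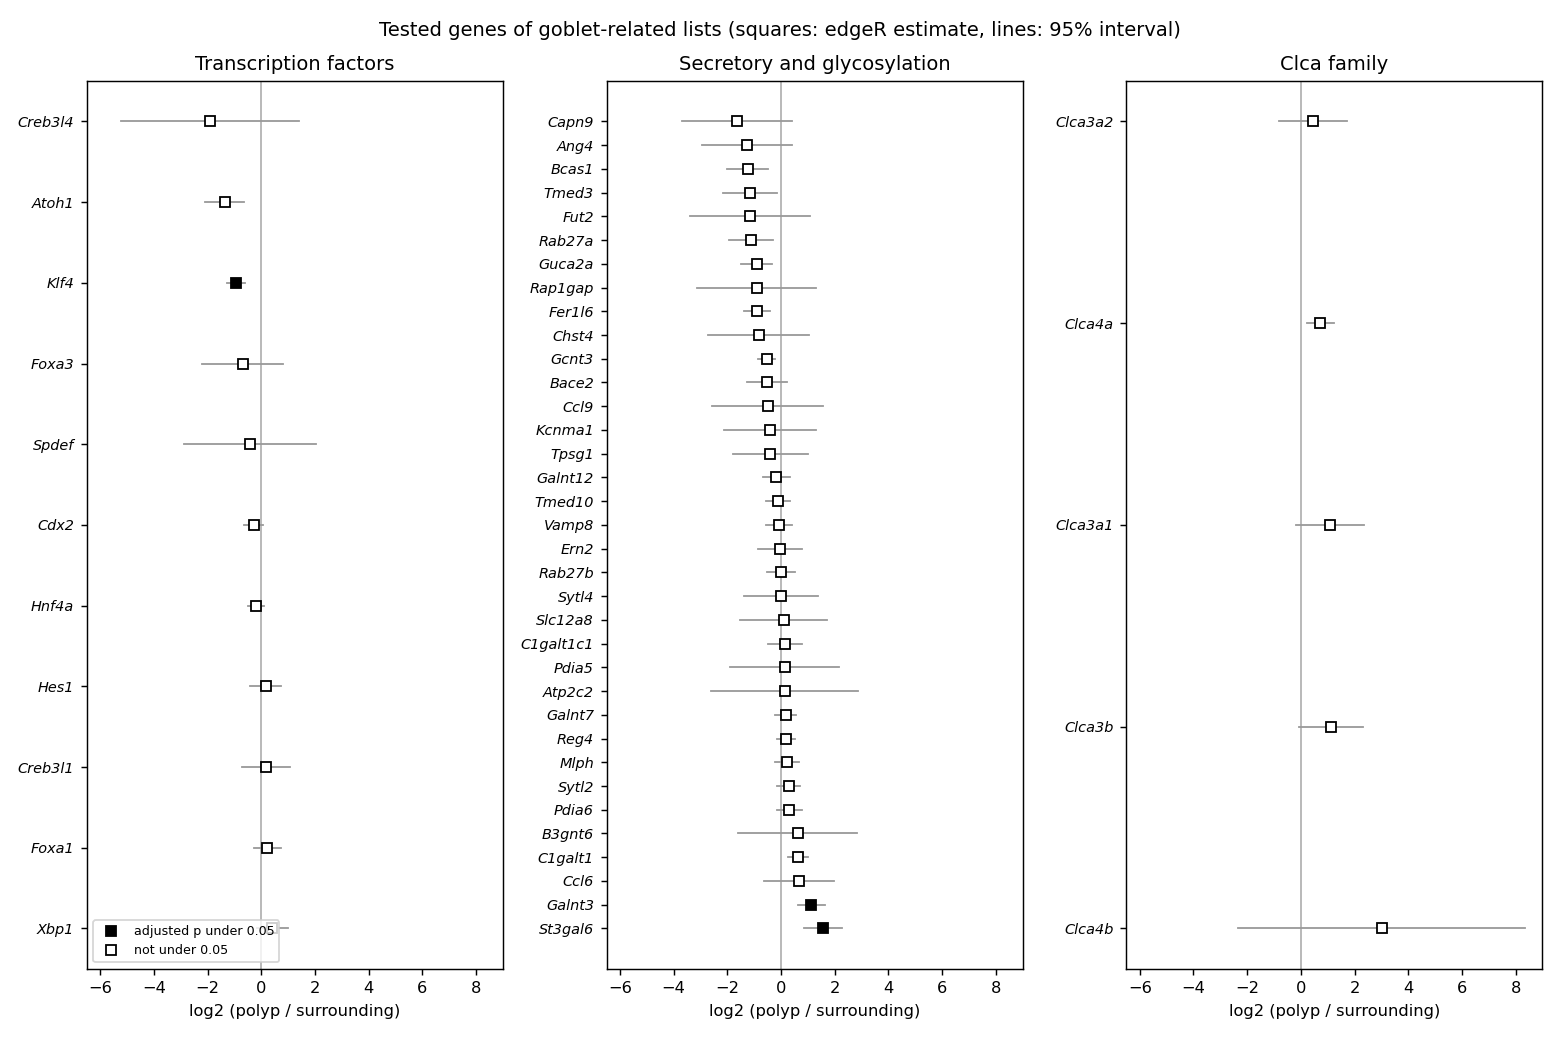
Log2 fold change, polyp over surrounding tissue (horizontal axes), of the tested genes in 3 lists, with squares for edgeR estimates, lines for 95% intervals and filled squares for adjusted p under 0.05. Klf4 is filled among the transcription factors and Galnt3 and St3gal6 among the secretory genes, while all 5 tested Clca family genes lie above 0 with 0 filled.

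The other genes of the Clca family that were tested had estimates in the opposite direction to Clca1. The log2 fold changes of these 5 all lay above 0 (median 1.08), where 51.6% of all genes tested lay below 0. The median was 0.47 without mouse 1192. The log2 ratio of the summed CPM of the family was 0.91, 1.30 and 0.12 in mice 1119, 1192 and 1199. Of the 5, 0 were called (1 higher and 0 lower at an unadjusted p under 0.05 by edgeR, 1 higher by DESeq2 and 0 by limma-voom). Clca4a stood at 1577, 1466 and 3974 CPM in surrounding tissue and at 3059.6, 3282 and 4163 CPM in polyps (log2 fold change 0.73 ± 0.22, edgeR adjusted p = 0.149). Clca3b stood at 137, 62.6 and 129 CPM and at 204, 341 and 171 CPM, without overlap (adjusted p = 0.382). These genes are related copies, and reads shared among them and Clca1 could not be followed. No test of the difference between Clca1 and this group was run.

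Of the other mucin genes, Muc3 and Muc4, which are membrane mucins, and Muc20 were abundant enough to test, and 0 of 3 were called (0 higher and 1 lower at an unadjusted p under 0.05 by edgeR, 1 lower by each of DESeq2 and limma-voom). Muc4 stood at 144, 181 and 154 CPM in surrounding tissue and at 116, 84 and 102 CPM in polyps, without overlap (log2 fold change -0.67 ± 0.17, edgeR adjusted p = 0.0973). Muc3 stood at 927, 1039.8 and 1796 CPM and at 857, 1097 and 1358 CPM, with overlap (edgeR adjusted p = 0.727). The gastric mucin gene Muc5ac had 6 counts over all 6 libraries and Muc5b 24, too few to test.

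Clca1 and Retnlb are known to be induced by interleukins 4 and 13, so genes of that axis were examined. Il4, Il13, Il9 and Il25 had 0 counts in all 6 libraries and Il5 had 1, so the cytokines were not detectable at this depth. Of 7 tested genes of the axis, edgeR called 2 higher and 0 lower (1.72% and 1.04% of all genes tested), with a median log2 fold change of 0.80. At an unadjusted p under 0.05, 4 were higher and 0 lower (8.3% and 6.27% of all genes). DESeq2 and limma-voom each called 3 higher and 0 lower. Il4ra, the receptor chain shared by both cytokines, stood at 34.2, 23.2 and 26.7 CPM in surrounding tissue and at 57.1, 41.4 and 47.1 CPM in polyps (log2 fold change 0.80 ± 0.16, edgeR adjusted p = 0.0396). Arg1, which these cytokines induce in macrophages, stood at 6.42, 0.497 and 10.1 CPM and at 55, 16.6 and 35.7 CPM (3.08 ± 0.50, adjusted p = 0.0252). In both genes all polyps were above all surrounding samples. Il4ra was not called with any of the mice left out, without the pairing or with scaling on epithelial genes, and Arg1 was not called without mouse 1119 or without the pairing.

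Markers of other cells differed between the tissues alongside the goblet cell genes. The counts below stand beside 1.72% of all genes tested called higher and 1.04% called lower by edgeR. The summed level of 33 general epithelial genes was 6205 to 9894 CPM in surrounding tissue and 9171 to 11557 CPM in polyps, higher in the polyp of each mouse, and 3 of 32 tested rose (Krt8, Krt18 and Krt19) and 0 fell, with 1 rising when any 1 mouse was left out and 0 without the pairing. Absorptive colonocyte markers summed to 16462 to 23157 CPM in surrounding tissue and 12495 to 16948 CPM in polyps, and 10 of 22 fell and 0 rose (5 fell without mouse 1119 or without mouse 1199, and 3 without the pairing). The 13 smooth muscle genes summed to 299 to 317 CPM in surrounding tissue and 72.6 to 163 CPM in polyps, and 2 of 12 tested fell (5 without mouse 1192, 1 without mouse 1199, 1 without the pairing, 7 with DESeq2). The 12 fibroblast genes summed to 91.3 to 200.4 and 336 to 732 CPM, and 7 of 12 rose (4 without the pairing). The 10 tuft cell genes summed to 13.3 to 26.1 and 5.82 to 8.36 CPM, the 13 enteroendocrine genes to 18.7 to 34.2 and 22.3 to 28.9 CPM, and the 15 leukocyte genes to 32.2 to 53.5 and 30.1 to 53.6 CPM. The 12 Paneth and deep crypt secretory genes summed to 67.2 to 97.1 and 109.8 to 253 CPM. None of the last 4 lists had a gene called in the main fit. DESeq2 and the fit without a filter on low counts each called 1 tuft gene lower. Limma-voom called 1 Paneth or deep crypt gene higher, and edgeR without mouse 1119 called 2 higher. The 5 tested tuft genes, all low, had a median log2 fold change of -2.24 that depended on which genes were tested. It was -0.63 over 9 genes without the filter, and -2.09 over 7 genes without mouse 1199. Only 2 tuft genes were tested without mouse 1119 (median -0.81) or without mouse 1192 (-0.51). In all libraries, 1 tuft, 1 enteroendocrine and 1 Paneth or deep crypt gene had 0 counts.

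The part of fibroblasts, muscle and colonocytes in the goblet cell differences was not tested. With libraries scaled on the general epithelial genes instead of all genes, the 3 members were still called, among 1.14% of all genes called lower. The log2 fold changes were then -2.01 ± 0.15 for Clca1, -1.42 ± 0.20 for Zg16 and -1.12 ± 0.18 for Fcgbp (edgeR adjusted p = 0.00423, 0.0159 and 0.0254). This scaling moved the median of all genes from -0.02 to -0.16. Muc2 remained uncalled at -0.40 ± 0.14 (adjusted p = 0.247).

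**Figure D4:**
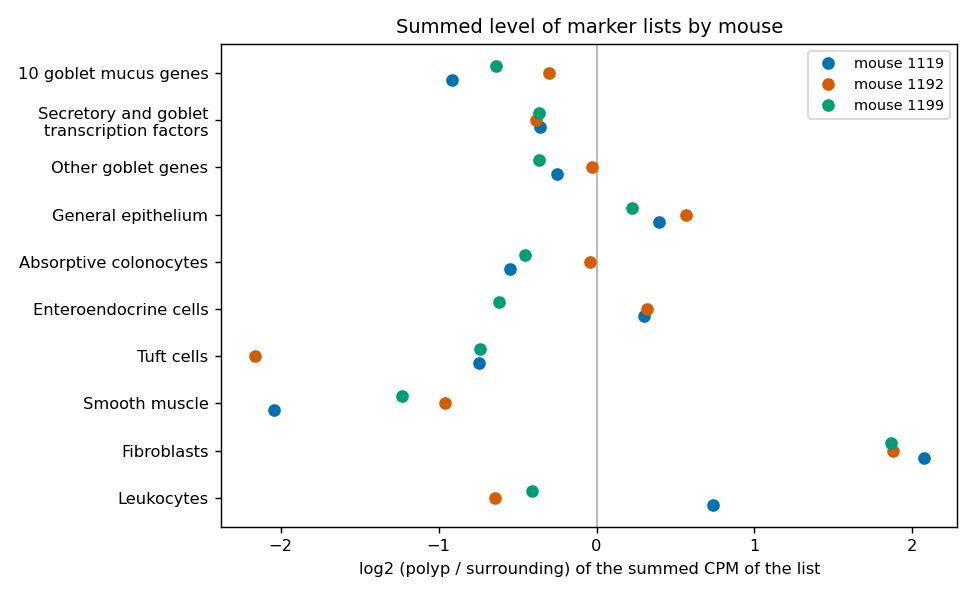
Log2 ratio, polyp over surrounding tissue, of the summed CPM of each list (horizontal axis), with 1 dot for each of the 3 mice. The 10 goblet mucus genes, the transcription factors, the other goblet genes and the absorptive colonocyte genes lie below 0 in each mouse. Smooth muscle and tuft cell genes lie below 0 too, and general epithelium and fibroblasts lie above 0. In mouse 1192 the other goblet genes were at -0.03 and the colonocyte genes at -0.04. Hnf4a and Klf4 make up most of the summed CPM of the transcription factors. Guca2a (mean 302 CPM in surrounding tissue, 163 in polyps) and Gcnt3 (261 and 179) weigh most among the other goblet genes. Of the tested genes in that list 2 rose and 0 fell, with a median log2 fold change of -0.09.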

How the data were processed

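Each sample has a table of whole-number counts by gene, which the authors deposited without normalization, as the values show. The submitters' processing notes list TopHat2 2.0.7, HTSeq 0.5.3p9 and Bowtie 0.12.9. Not given in the sources used here are tool settings, build, annotation and strandedness. Symbols came from GENCODE M21, which named 32919 of 37991 identifiers, and 237 of 243 list entries were matched.

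The test was the robust quasi-likelihood test of edgeR 4.0.16, in R 4.3.3, with TMM normalization, filterByExpr (minimum count 10) and the mouse as a block. Pairing comes from the submitters' design text, with the mouse number in each title. Deviations from tissue means correlated at 0.0831, 0.157 and 0.201 within mice. P-values were adjusted by Benjamini-Hochberg over 10960 genes. P-values rest on 1 sample per tissue and mouse. No library was a copy of another: within a tissue, chi-square over its degrees of freedom was 19.6 to 68.6. On simulated counts for this comparison (5 sets of 10960 genes, 200 changed in each), 29.4% of 2-fold and 70.4% of 4-fold changes were recovered, and 9.6% of 552 calls were false. Each gene had the same simulated mean in all mice of a tissue, apart from library scaling. The simulation thus carries no pairing, unlike the data.

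The members and 17 further lists were chosen with earlier results of these data known. The rule for named genes took all 10 members, the genes called and up to 4 of smallest p in a list, and the 5 nearest Muc2. Lists of other cell types are given mostly as counts, and Spdef, Reg4 and genes too low to test were picked after their values were seen. Alternatives were no block, upper-quartile or RLE scaling, dropping genes above 1% of a library, no filter, a mean of at least 5 CPM, no robustness, each mouse left out in turn, limma-voom (limma 3.58.1), DESeq2 1.42.0 and scaling on epithelial genes. Scaling on Muc2 was added after seeing the data. Figures were drawn with Python 3.11.15.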

Additional observations from a re-analysis of the deposited data

How the results depend on the processing

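Over all genes, 303 were called, against 87 without the pairing, 753 without a filter on low counts, 541 with DESeq2, 487 with limma-voom, 467 scaled on Muc2 (410 higher, 57 lower, beside 189 and 114), 239 scaled on epithelial genes (114 higher, 125 lower), and 83 to 281 with 1 mouse left out. Of the 10 members 3 were called lower, against 1 without the pairing (Zg16), 5 without the filter, and 1 (without mouse 1199, Clca1) to 4 (without mouse 1192) with 1 mouse left out. None of the 10 was called higher under the alternatives run. The fit without the replicate block was a change of model on the same samples. Members with a value near 0 changed sign without being called. Agr2 was at 0.15 without the block, -0.44 to 0.28 with 1 mouse left out, 0.21 with limma-voom and 0.26 scaled on Muc2. Spink4 was at -0.11 to 0.22 with 1 mouse left out and -0.026 scaled on epithelial genes, and Muc13 at -0.38 to 0.026 with 1 mouse left out and 0.078 scaled on Muc2. The cause was not tested. Hepacam2 was called without the filter (adjusted p = 0.02) and at a mean of at least 5 CPM (0.0423). In simulated counts of 3 samples per tissue without differences between mice, a 2-fold change was often missed.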
